A study of Mus musculus with 8 samples.

Results

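The nuclear genes for subunits of the mitochondrial respiratory chain were followed in cultured embryonic mouse lungs after IQ1. They were defined by symbol, and the choice was made with earlier results of these data known. The symbols were Ndufa, Ndufb, Ndufc, Ndufs and Ndufv genes for complex I and Sdha to Sdhd for complex II. For complex III they were 7 named genes, and for complex IV Cox4 to Cox8 genes. This gave 63 of the 24304 genes on the array, namely 35 in complex I, 4 in complex II, 7 in complex III and 17 in complex IV. Ndufa4 is counted under complex I for its symbol, although its protein is known as a subunit of complex IV.

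The lungs came from C57bl/6J embryos at E12.5 and were grown as explants with 10 µM IQ1 or with vehicle alone. IQ1 is a compound that changes which coactivator β-catenin works with. At 9 h there were 3 IQ1 and 3 control arrays, and at 24 h there was 1 IQ1 and 1 control array, each of pooled lungs. The vehicle is PBS in the labels, whereas by the methods IQ1 was dissolved in DMSO and controls had PBS or DMSO, and the description of the treated samples also mentions FGFR2b inhibition. The 9 h and 24 h cultures were separate experiments, so time and experiment cannot be told apart. RNA was from the whole organ, so that fewer cells of a type and less RNA per cell cannot be told apart.

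The respiratory chain sits in the inner mitochondrial membrane and passes electrons to oxygen. Complex I takes them from NADH and complex II from succinate, ubiquinone carries them to complex III, and cytochrome c carries them on to complex IV. Complexes I, III and IV pump protons, and ATP synthase uses the gradient. Most subunits are encoded in the nucleus, the rest in mitochondrial DNA. Some complex IV subunits have isoforms of heart and skeletal muscle, of testis or, for Cox4i2, of lung.

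Expression is given as the authors' quantile-normalised log2 intensity, and every difference is IQ1 minus control on that scale. Each gene was read from its brightest spot. Of the 63 genes, 60 lay above the median gene mean of 6.72, and the 3 below it were Cox7b2, Cox8b and Cox8c. One array at 9 h, control replicate 2, did not resemble the others: its correlation with them over all spots was 0.583 to 0.602, against 0.953 to 0.982 among those arrays. Results at 9 h are for this reason stated for 6 arrays and for the 5 arrays that leave this one out. Of 6 lung epithelial markers, 5 had an IQ1 mean at 9 h above the median gene level, and Cdh1 lay below it. Among those 5, the transcription factor Nkx2-1 was above this level in all samples. It was at 10.35 to 11.35 in the IQ1 arrays and 9.19 to 11.06 in the control arrays at 9 h. At 24 h it was at 10.65 with IQ1 and 11.42 in the control.

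No respiratory chain gene passed the test after 9 h of IQ1. With limma's moderated test over all genes, 0 of 63 reached an adjusted p under 0.05 with 6 arrays, where 0.0% of all genes did, and 0 of 63 with 5 arrays, where 0.0123% of all genes did. The smallest adjusted p among them was 0.730 with 6 arrays and 0.461, for Cox6b2, with 5 arrays. At an unadjusted p under 0.05, 0 of 63 genes were higher or lower with 6 arrays, where 1.13% of all genes were higher and 0.889% lower. With 5 arrays, Cox6b2 and Ndufa3 were higher and 0 were lower, where 4.24% of all genes were higher and 4.14% lower.

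The intervals give the size of difference that these arrays allow. With 5 arrays, the 95% interval of the difference had a median half-width of 0.592, and for 50 of the 63 genes the whole interval lay within 1 log2 unit of 0. With 6 arrays the median half-width was 1.26, and the interval lay within 1 unit of 0 for 8 genes.

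Most genes nevertheless had a mean slightly higher with IQ1 at 9 h. With 6 arrays, 52 of 63 differences were above 0 with a median of 0.58, where 57.2% of all genes and 72.5% of genes above the median level were above 0, with medians of 0.16 and 0.44. With 5 arrays, 49 of 63 were above 0 with a median of 0.13, where 51.6% of all genes and 50.2% of those above the median level were, with a median of 0.01 over all genes. Within both groups 1 array differed from the others.

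IQ1 replicate 1 and control replicate 2 stood at opposite ends. Against the mean of control replicates 1 and 3, the median respiratory chain gene stood at 0.41 in IQ1 replicate 1, 0.04 in IQ1 replicate 2 and 0.07 in IQ1 replicate 3, and at −1.11 in control replicate 2. In control replicate 2 the same median was −0.45 over all genes and −1.39 over those above the median level. IQ1 replicate 1 minus IQ1 replicates 2 and 3 had a median of 0.38 over the respiratory chain genes and 0.008 over all genes. Control replicate 2 was the lowest of the 6 arrays for 48 of 63 genes, where it was lowest for 49.5% of all genes and 69.4% of those above the median level. IQ1 replicate 1 was the highest of the IQ1 arrays for 51 of 63, where it was highest for 38.1% of all genes and 40.6% of those above the median level.

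With IQ1 replicates 2 and 3 set against control replicates 1 and 3, 38 of 63 genes were above 0, where 52.8% of all genes were. Their median difference was then 0.04, beside 0.03 over all genes. The median without IQ1 replicate 1 and control replicate 2 was thus close to that of all genes. IQ1 replicate 1 was the highest IQ1 array for 51 of these 63 genes, so leaving it out had to lower their difference. No conclusion is drawn from this median, and why these arrays differed was not tested.

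**Figure D1:**
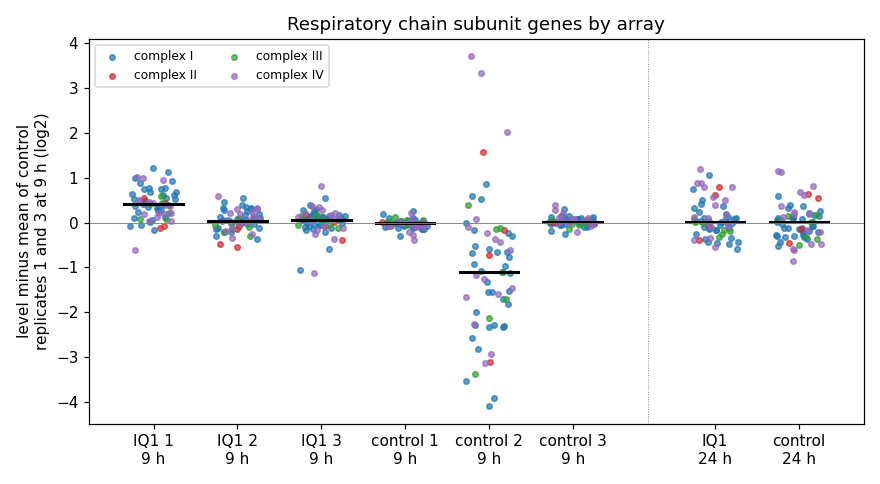
Each point is 1 respiratory chain gene, plotted for each array as its log2 intensity minus the mean of control replicates 1 and 3 at 9 h, with the complexes in colours and the median marked. IQ1 replicate 1 has a median of 0.41, control replicate 2 a median of −1.11, and the other arrays at 9 h and 24 h lie near 0.

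Groups that did not overlap were counted as well. With 6 arrays, all IQ1 arrays were above all control arrays for 17 of 63 genes, where this held for 8.33% of all genes and 11.5% of those above the median level. They were all below the controls for 0 genes, where this held for 5.25% of all genes. With 5 arrays the counts were 19 above, where 13.1% of all genes and 14.6% of those above the median level were, and 2 below, Sdha and Sdhd, where 13.1% of all genes were. Of the 17 genes, 12 were in complex I, 1 in complex III and 4 in complex IV.

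Complex I, with 35 of the 63 genes, had the highest share of genes above 0 in both fits. With 5 arrays, 30 of 35 were above 0 with a median of 0.22, where 51.6% of all genes were. With 6 arrays it was 33 of 35 with a median of 0.63, where 57.2% of all genes and 72.5% of those above the median level were. With IQ1 replicates 2 and 3 against control replicates 1 and 3, 24 of 35 were above 0 with a median of 0.07. Complex IV then had 12 of 17 above 0 with a median of 0.11, where 52.8% of all genes were. In the same comparison complex II had 0 of 4 above 0 with a median of −0.19. Complex III had 2 of 7 with a median of −0.03. The 6 measured core subunits of the matrix arm, which together carry the flavin and the iron-sulphur clusters (Ndufv1, Ndufv2, Ndufs1, Ndufs3, Ndufs7 and Ndufs8), were all above 0 with 5 arrays by their brightest spots, by 0.01 to 0.28. Without IQ1 replicate 1 as well, Ndufs1, Ndufs3 and Ndufs8 were at −0.02, −0.01 and −0.02, and the others stayed above 0. Dimmer spots gave −0.12 for Ndufv1, −0.15 for Ndufv2, −0.06 for Ndufs3 and 0.59 for Ndufs1 with 5 arrays. Of the other 28, leaving out Ndufa4, 23 were above 0, with a range of −0.15 to 0.77.

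Control replicate 2 set the largest differences of complex I with 6 arrays. Ndufb9, an accessory subunit of the membrane arm, was at 9.79, 9.30 and 9.30 with IQ1 and 8.90, 5.13 and 9.19 in controls, a difference of 1.73 with 6 arrays and 0.42 with 5. Ndufb8, of the same arm, was at 10.31, 9.52 and 9.78 with IQ1 and 9.53, 5.54 and 9.74 in controls, with 1.60 and 0.23. Against the other controls, control replicate 2 ran from −4.09 for Ndufb8 to 3.71 for Cox8c of complex IV, and was below both of them for 53 of the 63 genes and above both for 9.

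Ndufa3, an accessory subunit, had the highest difference of complex I with 5 arrays. Its levels at 9 h were 11.74, 11.07 and 11.06 with IQ1 and 10.49, 10.51 and 10.55 in controls. All IQ1 arrays were above all controls, control replicate 2 included, and the difference was 0.77 in both fits (SE 0.37 with 6 arrays, limma adjusted p = 0.730; SE 0.29 with 5 arrays, adjusted p = 0.56). Its other spots also gave positive differences with 5 arrays, of 0.75 and 0.44. At 24 h it stood at 11.58 with IQ1 and 11.12 in the control, a difference of 0.46.

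Ndufa11, an accessory subunit of the membrane arm, was at 10.95, 10.28 and 10.21 with IQ1 and 9.69, 10.66 and 9.94 in controls at 9 h. The groups overlapped only through control replicate 2, and the difference was 0.38 with 6 arrays (SE 0.44, limma adjusted p = 0.730) and 0.67 with 5 arrays (SE 0.30, adjusted p = 0.63). At 24 h Ndufa11 was at 10.55 with IQ1 and 9.59 in the control, which gave the largest difference of complex I, 0.96. It was the one gene of complex I past 0.5 at 24 h.

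The third of the high genes was Ndufa6, an accessory subunit of the matrix arm, with 11.02, 10.35 and 10.33 in IQ1 arrays and 10.13, 8.02 and 9.92 in controls. Its difference was 1.21 with 6 arrays (SE 0.66) and 0.54 with 5 arrays (SE 0.29). Control replicate 2 was the lowest array by over 1 unit. At 24 h it was at 9.90 with IQ1 and 10.13 in the control, on the other side of 0.

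At the low end were Ndufa10, Ndufa8 and Ndufa9, all accessory subunits. Ndufa10 was at 10.10, 9.79 and 10.14 with IQ1 and 10.19, 10.69 and 10.13 in controls, a difference of −0.33 with 6 arrays and −0.15 with 5. Ndufa8 was at 10.80, 10.67 and 11.03 with IQ1 and 10.90, 8.68 and 11.04 in controls, and Ndufa9 at 10.67, 10.44 and 10.47 with IQ1 and 10.56, 8.37 and 10.74 in controls. For both, control replicate 2 was the lowest array by over 1 unit, and the sign turned without it: the difference with 6 arrays was 0.63 for Ndufa8 and 0.64 for Ndufa9, and with 5 arrays it was −0.13 and −0.12.

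The brightest spots of complex I, those of Ndufa5 and Ndufb7, had among the narrowest intervals. Ndufa5, a subunit of the matrix arm, was at 12.81, 12.77 and 12.62 with IQ1 and 12.68, 12.38 and 12.68 in controls. Ndufb7, a membrane-arm subunit on the intermembrane side, was at 12.69, 12.86 and 12.79 with IQ1 and 12.82, 12.53 and 12.71 in controls. Their differences with 5 arrays were 0.05 (95% interval −0.46 to 0.56) and 0.02 (−0.49 to 0.53).

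The promoters of 3 genes are printed because these genes had the 3 highest differences with 5 arrays. Each window runs from 250 bases before to 50 bases after the start site and is from RefSeq, build GRCm38.p6. In the first the capitals mark CCAAT boxes on either strand, in the second the YY1 letters AAGATGGC, and in the third the NRF1 letters GCATGCGC, whose matches on both strands overlap.
Cox6b2, chr7:4753045-4753344, minus strand: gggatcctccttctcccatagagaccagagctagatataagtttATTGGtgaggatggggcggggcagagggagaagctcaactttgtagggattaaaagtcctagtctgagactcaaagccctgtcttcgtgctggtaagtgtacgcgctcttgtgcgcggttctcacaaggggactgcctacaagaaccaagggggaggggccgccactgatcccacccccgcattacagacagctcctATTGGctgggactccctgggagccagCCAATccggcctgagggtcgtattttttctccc
Ndufa3, chr7:3617123-3617422, plus strand: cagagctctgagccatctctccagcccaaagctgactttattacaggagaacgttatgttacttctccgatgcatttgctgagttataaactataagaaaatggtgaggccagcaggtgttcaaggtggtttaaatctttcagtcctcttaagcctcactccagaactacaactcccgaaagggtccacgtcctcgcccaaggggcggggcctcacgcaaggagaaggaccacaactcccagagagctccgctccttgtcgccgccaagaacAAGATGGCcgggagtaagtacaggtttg
Ndufa11, chr17:56717512-56717811, plus strand: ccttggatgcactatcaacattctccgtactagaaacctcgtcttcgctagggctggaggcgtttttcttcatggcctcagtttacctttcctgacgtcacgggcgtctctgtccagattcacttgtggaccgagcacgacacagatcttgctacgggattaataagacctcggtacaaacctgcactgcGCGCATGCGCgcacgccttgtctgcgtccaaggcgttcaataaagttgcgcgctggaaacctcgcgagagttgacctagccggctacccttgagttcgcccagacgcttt
Such a match is a description of the letters and says nothing of binding.

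Over the 50 genes with a RefSeq window, the YY1 letters were found in 7, or 14.0%, all in complex I (Ndufa3, Ndufa9, Ndufb8, Ndufc1, Ndufs4, Ndufs6 and Ndufs7), against 3.22% of 17492 protein-coding genes. The NRF1 letters were in 6, or 12.0%, against 3.61%. The ETS letters CCGGAAGT were in 3, or 6.0%, against 5.29%, and CCAAT was in 20, or 40.0%, against 39.0%. The E-box CACGTG was in 2, or 4.0%, against 7.9%. Both strands were searched, and the genes with the YY1 letters included both Ndufa3, among the highest, and Ndufa9, among the lowest differences.

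Complex II, which oxidises succinate, had 2 of 4 genes above 0 in either fit, with a median of 0.11 with 6 arrays and −0.05 with 5. Sdha, the flavoprotein, was at 10.35, 9.95 and 10.41 with IQ1 and 10.43, 7.36 and 10.53 in controls, and its difference was 0.79 with 6 arrays and −0.25 with 5 (SE 0.24). Sdhb, the iron-sulphur subunit, was at 9.82, 8.81 and 9.46 with IQ1 and 9.30, 10.85 and 9.26 in controls. Control replicate 2 was the lowest array for Sdha and the highest for Sdhb. Sdhb's difference was −0.44 with 6 arrays and 0.08 with 5, and its dimmer spot gave 1.11 and 0.02.

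The membrane anchors of complex II differed little. Sdhc was at 11.40, 10.81 and 10.98 with IQ1 and 10.96, 10.24 and 10.98 in controls, a difference of 0.34 with 6 arrays and 0.10 with 5. Sdhd was at 11.85, 11.85 and 11.54 with IQ1 and 11.91, 11.76 and 11.95 in controls, a difference of −0.13 with 6 arrays and −0.18 with 5. At 24 h Sdhd was at 11.87 with IQ1 and 11.47 in the control, so the difference there was 0.41, opposite in sign.

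In complex III, 5 of 7 genes were above 0 with 6 arrays (median 0.34) and 4 of 7 with 5 arrays (median 0.12). Uqcrc2, a core protein without a redox group, was the one gene of this complex whose groups did not overlap, at 12.22, 11.87 and 11.94 with IQ1 and 11.82, 10.08 and 11.73 in controls. Its difference was 0.80 with 6 arrays (SE 0.57) and 0.23 with 5 (SE 0.22). Its partner Uqcrc1 was at 8.63, 7.99 and 8.19 with IQ1 and 8.18, 4.68 and 7.91 in controls, so that its 1.34 with 6 arrays stood beside 0.22 with 5.

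The redox subunits of complex III were close to 0 with 5 arrays. Cyc1, cytochrome c1, was at 10.15, 9.78 and 10.15 with IQ1 and 10.12, 9.96 and 10.05 in controls, a difference of −0.02 with 6 arrays and −0.06 with 5. Uqcrfs1, the Rieske iron-sulphur protein, was at 11.17, 10.74 and 10.84 with IQ1 and 10.91, 8.82 and 11.00 in controls, a difference of 0.68 with 6 arrays and −0.04 with 5. The small subunits Uqcrb, Uqcrh and Uqcrq had differences of 0.12, 0.12 and −0.03 with 5 arrays.

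**Figure D2:**
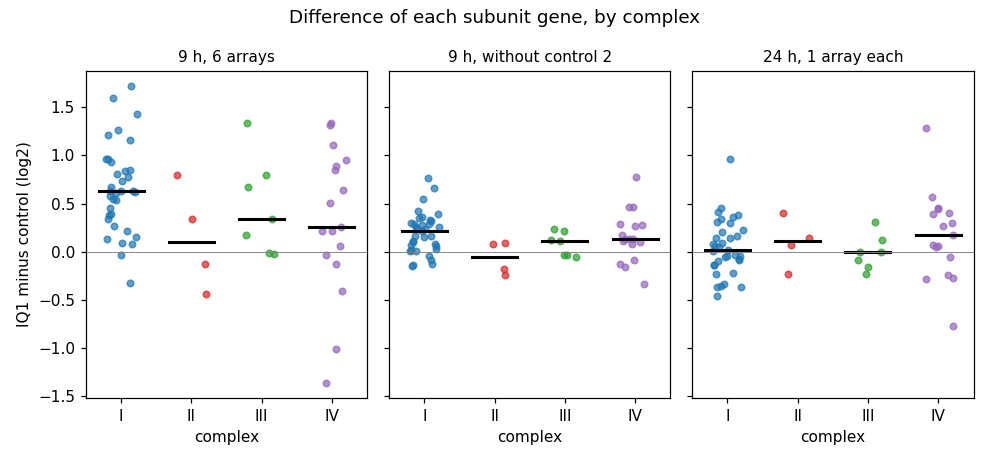
The IQ1 minus control difference of each gene on the log2 scale, by complex, at 9 h with 6 and with 5 arrays and at 24 h. The differences with 5 arrays lie between −0.33 and 0.78, and complex I has 30 of 35 above 0 there and 19 of 35 at 24 h.

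Complex IV, the oxidase, had 12 of 17 genes above 0 with 6 arrays (median 0.26) and 13 of 17 with 5 (median 0.13). Its highest difference was that of Cox6b2, known as the testis isoform of subunit 6b. Cox6b2 was at 10.83, 10.47 and 10.69 with IQ1 and 9.80, 8.22 and 9.97 in controls, with all IQ1 arrays above all controls. The difference was 1.33 with 6 arrays (SE 0.56, limma adjusted p = 0.730) and 0.78 with 5 (SE 0.23, adjusted p = 0.461). At 24 h it was at 10.76 with IQ1 and 11.00 in the control, a difference of −0.24.

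The ubiquitous partner Cox6b1 was at 11.64, 10.92 and 10.71 with IQ1 and 10.53, 9.17 and 10.72 in controls. IQ1 replicate 1 was the highest and IQ1 replicate 3 lay within the controls, and the difference with 5 arrays was 0.47 (SE 0.33). At 24 h it was 0.44, so that this isoform, unlike Cox6b2, had the same sign at both times, a contrast that was not tested. Cox7a2, the general isoform of subunit 7a, was at 12.67, 11.87 and 11.88 with IQ1 and 11.57, 10.51 and 11.78 in controls, with all IQ1 arrays above all controls, and had 0.46 by 5 arrays and 0.18 at 24 h. Cox7a2l, known for its part in respiratory supercomplexes, had 0.18 and −0.27.

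The isoforms of heart and skeletal muscle showed no common direction. Cox6a2 was at 7.35, 7.12 and 6.64 with IQ1 and 7.12, 4.65 and 6.69 in controls, a difference of 0.13 with 5 arrays, beside 0.29 for its general partner Cox6a1. Cox7a1 was at 6.80, 6.87 and 6.86 with IQ1 and 6.50, 8.60 and 6.67 in controls, so that its sign turned, with −0.41 by 6 arrays and 0.26 by 5. Cox8b, at 4.08 to 5.60 with IQ1 and 4.60 to 5.41 in controls, was near the lower quartile of all spots, 4.34, and had −0.33, beside 0.28 for its general partner Cox8a.

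Cox4i2, the isoform known from lung, was at 10.09, 11.02 and 10.73 with IQ1 and 10.70, 10.27 and 10.70 in controls, a difference of 0.06 with 6 arrays and −0.08 with 5. Its IQ1 arrays lay on both sides of the controls. Its general partner Cox4i1 was at 13.44, 13.07 and 13.24 with IQ1 and 13.43, 13.04 and 13.40 in controls, with −0.04 and −0.16. The testis isoforms Cox7b2 and Cox8c were at 3.55 to 3.83 and 2.82 to 3.39 with IQ1, below the lower quartile of all spots, against 3.34 and 3.89 for Cox7b2 and 2.81 and 3.58 for Cox8c in control replicates 1 and 3. In control replicate 2 alone they were at 6.95 and 6.90. Their partner Cox7b had 0.08 with 5 arrays. Cox7c, a small ubiquitous subunit, had 0.13, and Cox5a and Cox6c had 0.14 and 0.12.

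**Figure D3:**
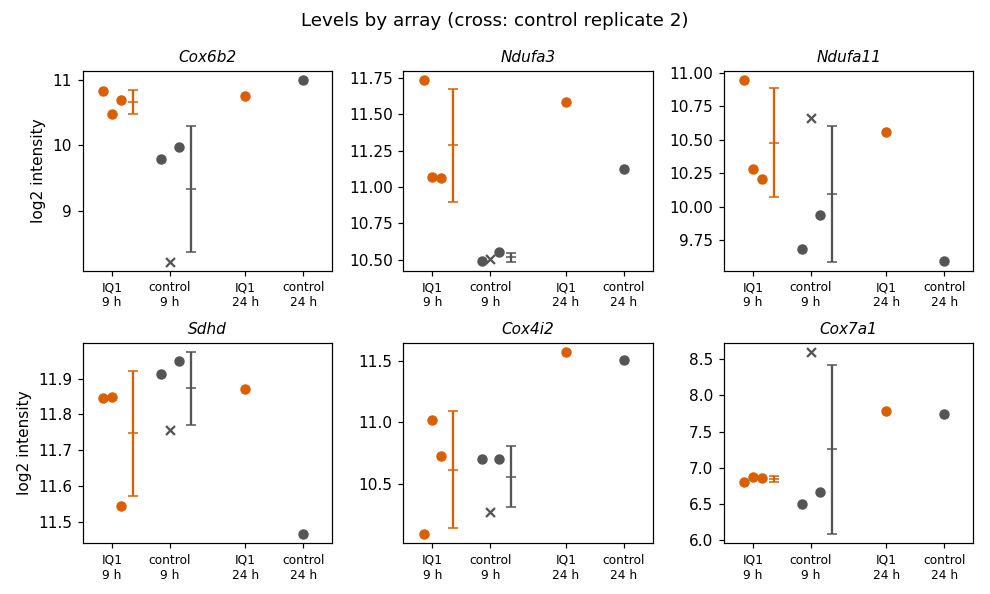
Log2 intensity of selected respiratory chain genes in every array, with IQ1 left of control at each time. Bars give the mean and SD of the 3 arrays per group at 9 h, and the cross is control replicate 2. Cox6b2 and Ndufa3 have all 3 IQ1 arrays above all 3 control arrays at 9 h, and Ndufa11 has an IQ1 array of 10.55 against 9.59 in the control at 24 h.

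At 24 h, with 1 array per group and no test, the differences were small. Of 63 genes, 36 were above 0, where 51.4% of all genes were, with a median of 0.06 beside 0.02 over all genes. By complex, the numbers above 0 were 19 of 35, 3 of 4, 2 of 7 and 12 of 17 for complexes I to IV, with medians of 0.02, 0.11, −0.0018 and 0.18. In complex I they ran from −0.46 for Ndufv1 to 0.96 for Ndufa11. A difference of at least 0.5 was taken as the size to name.

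Ndufa11, Cox6a1 and Cox7b2 were at least 0.5 higher, 3 of 63 genes, where 18.3% of all genes and 10.9% of those above the median level were. Cox8c was at least 0.5 lower, 1 of 63, where 16.2% of all genes and 10.3% of those above the median level were. Cox6a1 was at 12.92 with IQ1 and 12.35 in the control. Cox7b2 was at 4.41 with IQ1 and 3.13 in the control, and Cox8c at 2.66 with IQ1 and 3.43 in the control, all near or below the lower quartile of the spots. Among the genes of higher signal, then, Ndufa11 and Cox6a1 were past 0.5 at 24 h, and their differences with 5 arrays at 9 h were 0.67 and 0.29.

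The differences at 9 h and 24 h had the same sign for 36 of 63 genes (57.1%), beside 58.8% of all genes. Their Pearson correlation across the 63 genes was 0.12, beside 0.29 across all genes, as a description over genes that share the same arrays within each time. Of the 17 genes whose IQ1 arrays were all above the controls with 6 arrays at 9 h, 8 were above 0 at 24 h and 9 below 0. As counts of 63, these stand beside 5.68% and 2.65% of all genes. The core subunits of complex I, all above 0 at 9 h with 5 arrays by their brightest spots, had 2 of 6 above 0 at 24 h, with a range of −0.46 to 0.38.

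**Figure D4:**
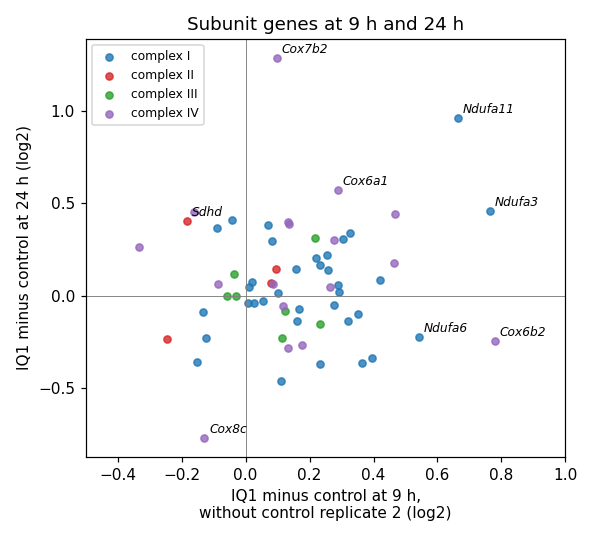
Each point is 1 respiratory chain gene, with its difference at 9 h (5 arrays) on the x axis and at 24 h on the y axis, both in log2 units and coloured by complex. Of the 63 genes, 36 have the same sign at both times, and Cox6b2 lies at 0.78 at 9 h and −0.24 at 24 h.

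Between the cultures, both 24 h arrays were above the 5 arrays at 9 h for 5 of 63 genes. These were Ndufa12, Sdhb, Sdhc, Cox4i2 and Cox7a1. This held for 12.7% of all genes and 14.4% of those above the median level. Both 24 h arrays were below the 5 arrays at 9 h for 15 of 63. That held for 12.3% of all genes and 17.0% of those above the median level. Of these 15 genes, 10 were in complex I (among them Ndufa8, Ndufs3, Ndufs8 and Ndufv1), 3 in complex III (Cyc1, Uqcrc1 and Uqcrfs1) and 2 in complex IV (Cox4i1 and Cox7b). The lung isoform Cox4i2 was at 11.57 with IQ1 and 11.51 in the control at 24 h, and Cox4i1 was at 13.01 with IQ1 and 12.56 in the control. Time and experiment cannot be told apart in these values.

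Other genes of the pathway were described in the same way. Of 16 ATP synthase subunits, 12 were above 0 with 5 arrays (median 0.13) and 13 at 24 h (median 0.14), and 0 passed the limma test or an unadjusted p under 0.05. Atp5g2 and Atp5j2, at the high end, had 0.39 and 0.38 with 5 arrays and 0.28 and 0.31 at 24 h. Atp5g1 and Atp5a1, at the low end, had −0.17 and −0.16 with 5 arrays. Of the 13 mitochondrially encoded subunits, 0 were read under these names.

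Among 9 further subunits and electron carriers, 5 were above 0 with 5 arrays (median 0.18), and 0 passed. Uqcr10, a small subunit of complex III, was at 12.45, 11.97 and 11.76 with IQ1 and 11.37, 9.55 and 11.47 in controls, a difference of 0.64 with 5 arrays (SE 0.28, limma adjusted p = 0.61), and 0.83 at 24 h. Etfdh, which passes electrons from fatty acid oxidation to ubiquinone, had 0.51 and 0.50. At the low end of the genes above the median level, Cycs, cytochrome c, had −0.23 and −0.27, and Ndufab1, the acyl carrier protein, had −0.14 and −0.26. Below that level, Cyct, the testis cytochrome c, had −0.89 with 5 arrays and 0.80 at 24 h, at 3.52 to 4.80 with IQ1 and 4.62 to 6.29 in controls at 9 h.

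Assembly factors had no common direction, with 20 of 41 above 0 (median −0.0004) with 5 arrays and 0 past the adjusted threshold. That median is the value of Timmdc1, at 15.9987 to 15.9994 in all arrays, where the highest value of the data was 15.9994. Acad9, at 15.913 to 15.9981, was also near this upper limit, so for both genes a difference could hardly be read. At an unadjusted p under 0.05, Uqcc3 and Sdhaf4 were higher (2 of 41, where 4.24% of all genes were) and Cox10 lower (1 of 41, where 4.14% were). Cox10, which acts in making the heme of complex IV, lay below the median level, at 4.65, 5.09 and 4.70 with IQ1 and 5.66, 11.23 and 5.38 in controls, a difference of −0.70 with 5 arrays and −0.81 at 24 h. Uqcc3 and Sdhaf4, which help to build complexes III and II, had 1.13 and 0.90 with 5 arrays and −0.44 and 1.04 at 24 h. The lowest above the median level were Sco2 and Pet117, which help to build complex IV, with −0.59 and −0.47 with 5 arrays and −0.01 and −1.12 at 24 h.

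Of 21 regulators of mitochondrial biogenesis, 9 were above 0 with 5 arrays (median −0.01) and 0 passed. Ppargc1a, a coactivator that drives mitochondrial biogenesis, was at 7.89, 7.75 and 8.18 with IQ1 and 7.14, 5.50 and 6.84 in controls, with no overlap. Its difference was 0.95 with 5 arrays (SE 0.25, limma adjusted p = 0.398) and 1.26 at 24 h. Myc, a growth regulator, was at 9.11, 8.84 and 8.81 with IQ1 and 10.20, 10.53 and 9.75 in controls, again with no overlap, a difference of −1.05 with 5 arrays (SE 0.25, adjusted p = 0.356) and −0.40 at 24 h.

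Next among regulators above the median level, Pprc1, related to Ppargc1a, had 0.31 and Gabpb1, a subunit of the ETS factor NRF2, had −0.46 with 5 arrays. Of 17 enzymes of the tricarboxylic acid cycle and pyruvate dehydrogenase, 10 were above 0 (median 0.01) and 0 passed. The pyruvate dehydrogenase subunits took both ends of this list, with Dlat at 0.52 and Pdhb at 0.47, and Pdhx at −0.65 and Pdha1 at −0.38.

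Markers of other cell types also differed between IQ1 and control, with 6 of the 7 endothelial markers lower at an unadjusted p under 0.05 with 5 arrays, where 4.14% of all genes were, and a smallest limma adjusted p of 0.0793. All 7 endothelial markers were lower with 5 arrays (median −2.32) and at 24 h (median −2.13), and their summed log2 level was 41.2 to 42.7 in IQ1 arrays and 43.8 to 56.3 in controls at 9 h. Smooth muscle markers were above 0 for 7 of 7 (median 0.70, and 1.48 at 24 h), with summed levels of 75.0 to 76.9 with IQ1 and 70.7 to 73.9 in controls. Cardiac and skeletal muscle markers were above 0 for 9 of 16 (median 0.27) and for 12 of 16 at 24 h (median 0.62). Their summed levels at 9 h were 105.4 to 110.2 with IQ1 and 102.9 to 105.6 in controls. The muscle genes Mb and Ckm were near or below the lower quartile of the spots. Of 6 germ cell markers, 4 were above 0 (median 0.10). Mesothelial markers were above 0 for 4 of 5 (median 1.33) and macrophage markers for 5 of 6 (median 0.54), and 0 of the markers passed the adjusted threshold. Erythroid markers were above 0 for 6 of 6 (median 0.06). Lung epithelial markers were above 0 for 2 of 6 with 5 arrays (median −0.39) and 3 of 6 at 24 h (median −0.30), with summed levels of 50.2 to 54.8 with IQ1 and 52.0 to 55.4 in controls at 9 h. Among them, Sftpc, the surfactant gene of the distal epithelium, was at 9.70, 9.35 and 9.30 with IQ1 and 10.41, 9.77 and 10.31 in controls, a difference of −0.91 with 5 arrays (limma adjusted p = 0.395), and −2.37 at 24 h. The adhesion gene Cdh1 was at 4.07 to 5.83 with IQ1 and 5.58 to 8.53 in controls at 9 h. Mesenchymal markers were above 0 for 2 of 6 (median −0.18) and 1 of 6 at 24 h (median −0.33). The part of these cells in the respiratory chain values was not tested.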

How the data were processed

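The series holds 8 Agilent arrays of E12.5 mouse lung explants. RNA was amplified as cDNA before labelling. The deposited values are log2 intensities, which the authors made in limma from background-corrected signals (NormExp, offset 1) by taking logs and quantile normalisation. After this step a difference is relative to the array's other genes, and amplification adds error to weak signals. Signal over background per spot is not given in the sources used here, and the number of arrays limits precision.

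Of 62976 spots, 43941 were named, through accession (33708), symbol (9763) or synonym (463) in a RefSeq table, with 7 left as listed, and 8 were dropped for a missing value. The brightest spot per gene by mean over the 8 arrays was kept, as in the methods. Ndufb1 and Cox5b were not analysed here. The pseudogene Cox7c-ps1 was left out. Of the 63 genes, 20 had more than 1 spot, and in 8 of these the spots differed in sign with 5 arrays.

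Differences at 9 h were fitted over all 24304 genes by lmFit and eBayes (limma 3.58.1, R 4.3.3; two-sided) and adjusted by Benjamini-Hochberg, with a threshold of 0.05. The study gives n = 2 for controls at 9 h without saying which array was dropped, so all 3 enter, and the fit without control replicate 2 stands beside it. Replicates are called biological in the design text. At 24 h, with 1 array per group, no test was made. The script was tested on simulated data. Alternatives were the scaling, the spot rule, a filter on dim genes, array weights, the prior, a replicate block and leaving out each array.

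The genes and the lists were chosen with earlier results of these data known. Named are all of complex II, the complex IV isoforms, and in each complex the 2 genes of highest level and the 3 of highest and 3 of lowest difference with 5 arrays above the median gene level. In other pathway lists, the 2 highest and 2 lowest above that level are named. Genes named in addition were chosen after their values were seen.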

Additional observations from a re-analysis of the deposited data

Results flagged for a closer look

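In 9 genes, all IQ1 arrays were above all control arrays at 9 h, while the IQ1 array was below the control array at 24 h. This held for 2.65% of all genes. The part of this at 9 h, all IQ1 arrays above all controls, held for 8.33% of all genes and 11.5% of those above the median level. Another 8 genes that did not overlap at 9 h were higher at 24 h too, by 0.057 for Ndufc1 to 0.46 for Ndufa3, which held for 5.68% of all genes. In the 9 genes, the values at 24 h were −0.14 for Ndufa2, −0.22 for Ndufa6, −0.34 for Ndufb11, −0.37 for Ndufb3, −0.10 for Ndufs4 and −0.074 for Ndufs6 in complex I, −0.16 for Uqcrc2 in complex III, and −0.24 for Cox6b2 and −0.27 for Cox7a2l in complex IV. All 9 of these values at 24 h were smaller in size than 0.5, the size taken as large enough to name. The differences of the 9 genes at 9 h with 5 arrays were between 0.17 and 0.78. The difference between the times was not tested, since 24 h has 1 array per group, and time and experiment cannot be told apart.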

How the results depend on the processing

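No respiratory chain gene reached an adjusted p under 0.05 in any of the settings tried, in which the smallest values were 0.105 with array weights and 0.122 with an intensity trend and robust prior without control replicate 2, both for Cox6b2. Leaving out each array in turn gave 49 to 55 of 63 genes above 0 and medians of 0.13 to 0.77. Centring each array on the genes above the median level gave 37 of 63 above 0 with a median of 0.19, while all genes had a median of −0.23. With the replicate number as a block, 52 of 63 genes were above 0 and 0 passed. Deviations of same-numbered arrays from their group means had correlations of 0.0038, −0.0036 and 0.0153. The control mean there includes control replicate 2, which enters all control deviations, so these correlations cannot decide whether the numbers are pairs. In the main fit the numbers were not taken as pairs. At 24 h a threshold of 1 in place of 0.5 left 1 gene higher, Cox7b2, and 0 lower. Cox7b2 was at 4.41 with IQ1 and 3.13 in the control, near or below the lower quartile of the spots. The share of all genes at this threshold is not given here, so nothing is read from this count.

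Signs against the 6-array difference turned as follows, and the cause was not tested. Centring gave −0.23 for Ndufa5, −0.29 for Ndufb7, −0.0033 for Ndufa11, −0.049 for Sdhc, −0.21 for Uqcrh, −0.049 for Uqcrq, −0.17 for Cox7c, −0.18 for Cox7a2l, −0.33 for Cox4i2 and −0.12 for Cox6a1. The mean over spots gave 0.23 for Ndufa10, 0.33 for Sdhb, 0.31 for Uqcrb and 0.44 for Cyc1. Array weights gave −0.025 for Ndufa8, −0.12 for Ndufa9, 0.053 for Sdhb, −0.16 for Sdha, 0.010 for Uqcrb, −0.069 for Uqcrfs1, −0.051 for Uqcrq, −0.0048 for Cox7c, −0.10 for Cox6a2, 0.29 for Cox7a1 and 0.092 for Cox7b2. The replicate block without control replicate 2 gave −0.022 for Ndufb7, −0.053 for Ndufa8, −0.079 for Ndufa9, 0.36 for Sdhb, −0.10 for Sdha, 0.18 for Uqcrb, 0.065 for Cyc1, −0.29 for Cox4i2, 0.25 for Cox7a1 and 0.071 for Cox7b2. With 1 array left out, the ranges were −0.13 to 1.04 for Ndufa8, −0.12 to 1.06 for Ndufa9, −0.72 to 0.080 for Sdhb, −0.25 to 1.34 for Sdha, −0.16 to 0.12 for Uqcrb, −0.082 to 0.10 for Cyc1, −0.035 to 1.05 for Uqcrfs1, −0.032 to 0.53 for Uqcrq, −0.16 to 0.054 for Cox4i1, −0.14 to 0.32 for Cox4i2, −0.78 to 0.26 for Cox7a1, −1.71 to 0.10 for Cox7b2 and −0.49 to 0.27 for Cox8b.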
